A study of Mus musculus with 18 samples.

Results

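Replication-dependent histone genes encode the bulk of the histone protein of chromatin and sit in clusters. They were chosen here as the genes whose symbol begins with Hist, a digit from 1 to 4 and the letter h, which names 70 of the 54752 genes in the RNA files and 67 of the 22523 genes in the footprint files. Of the 70 genes, 56 lie on mouse chromosome 13, 10 on chromosome 3, 3 on chromosome 11 and 1 on chromosome 6. Of the 70, 3 are annotated as pseudogenes and have no footprint value.

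DNA is wound on octamers of the core histones H2A, H2B, H3 and H4, linker histone H1 binds between them, and the replication-dependent genes for these proteins are transcribed mainly in S phase into mRNAs that end in a short stem-loop, bound by the protein Slbp, in place of a poly(A) tail. Some of these genes also make longer, polyadenylated mRNAs, while replacement variants such as H2A.Z and H3.3 are made outside S phase from mRNAs with a poly(A) tail. In the cerebellum, granule neuron progenitors divide after birth and have largely stopped by weaning age, so most cells there are neurons and glia that no longer replicate DNA.

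The study compared the cerebellum of C57BL/6J mice (B6J) with that of B6J mice that lack either of the related translational GTPases Gtpbp1 and Gtpbp2, to ask how their loss changes expression and translation. RNA was selected with oligo(dT) and sequenced, so that mRNAs with a poly(A) tail were captured, while ribosome profiling sequenced the mRNA stretches that ribosomes protect (footprints) and did not depend on a tail. There were 3 mice of each genotype in each assay, which gives 18 libraries. The labels place all RNA libraries in 1 batch and all footprint libraries in another, so assay and batch cannot be told apart, and RNA and footprints were tested separately.

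All mice, the B6J controls included, carry the B6J mutation of *n-Tr20*, a brain-specific arginine tRNA gene that reads AGA codons. In *Gtpbp1*-/- mice, a PGK-Neo cassette replaces part of exon 3 and exon 4 of *Gtpbp1*. In *Gtpbp2*-/- mice, the ENU-induced null allele *nmf205* is homozygous. Mice were 3 weeks old (P21), both sexes were used, and each profiling replicate came from 1 whole cerebellum, so every value is an average over its cell types. Library totals were between 37794598 and 52114400 estimated counts for RNA and between 3630823 and 10442573 counts for footprints.

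The targeted genes were examined first. CPM values (counts scaled to a common library size, with TMM-scaled totals) of *Gtpbp1* RNA were 71.0, 77.8 and 66.7 in B6J and 44.0, 41.7 and 43.9 in *Gtpbp1*-/- mice (log2 fold change −0.73, edgeR adjusted p = 5.94e-05). *Gtpbp1* footprints were at 73.6, 116.7 and 84.8 CPM in B6J and at 32.0, 25.5 and 35.6 CPM in *Gtpbp1*-/- mice (log2 fold change −1.57, edgeR adjusted p = 0.00676). In both assays the mutant libraries stood below all B6J libraries, as their labels say. *Gtpbp2* RNA was at 85.9, 74.0 and 88.1 CPM in B6J and at 65.5, 75.4 and 72.7 CPM in *Gtpbp2*-/- mice, which overlap. *Gtpbp2* footprints were at 44.7, 36.1 and 38.4 CPM in B6J and at 28.9, 26.4 and 7.54 CPM in *Gtpbp2*-/- mice, lower in each mutant library but not past the test (edgeR adjusted p = 0.321). A point mutation can leave the level of its RNA as it was, so *Gtpbp2* RNA is a weak check of these labels.

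Histone genes held a far smaller share of the poly(A) RNA than of the footprints. Their share of estimated RNA counts was 0.0111% ± 0.00122 in B6J, 0.0130% ± 0.000569 in *Gtpbp1*-/- and 0.0110% ± 0.00165 in *Gtpbp2*-/- mice (SD, n = 3 each). Their share of footprints was 0.258% ± 0.00442, 0.291% ± 0.0369 and 0.213% ± 0.0187 in the same order. On the CPM scale, the summed level over all members and libraries was 21.8 times as high in footprints as in RNA. The difference holds library by library, since the lowest footprint share (0.192%) was above the highest RNA share (0.0137%). Batch, poly(A) selection, read length and the handling of shared reads all differ between the assays, and their parts in this difference were not tested.

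The same contrast appears gene by gene when levels are ranked among 21869 protein-coding genes with values in both assays. RNA was ranked by TPM, a transcript share of the library that allows for transcript length, and footprints by CPM per kilobase of coding sequence. The median percentile of the 67 histone genes was 30.8 in RNA and 68.1 in footprints, and 63 of them (94%) ranked higher in footprints, against 55.8% of the protein-coding genes. Replacement variants, a list of 11 genes, had median percentiles of 85.1 and 92.3, and 7 of the 11 ranked higher in footprints. At least 5 counts in each of the 9 libraries were reached by 21 of the 67 histone genes in RNA (31.3%, against 70.5% of protein-coding genes) and by 44 in footprints (65.7%, against 57.2%). Across the 67 genes, RNA and footprint levels had a Spearman rho of 0.30, while it was 0.87 across the 11 replacement variants and 0.92 across all 21869 genes. These correlations describe genes measured in the same libraries, which are not independent replicates.

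**Figure D1:**
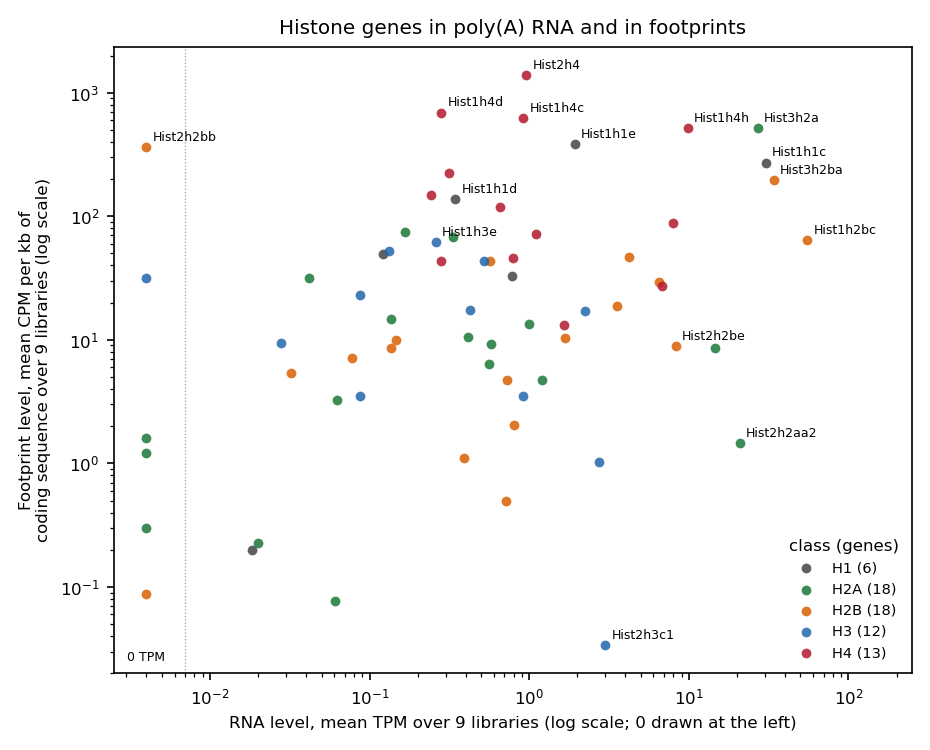
Each point is 1 of the 67 histone genes, with the mean RNA level over 9 libraries in TPM on the horizontal axis and the mean footprint level over 9 libraries in CPM per kilobase of coding sequence on the vertical axis, both on log scales. Colours give the histone class, and the genes at 0 TPM are drawn at the left edge, among them *Hist2h2bb* with 361.6 CPM per kilobase in footprints.

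Few genes carried most of the signal, and they differed between the assays. Here and below, genes are ranked by their mean level over all 9 libraries. *Hist1h2bc*, *Hist3h2ba*, *Hist1h1c*, *Hist3h2a* and *Hist2h2aa2*, the 5 with the highest TPM, held 68.7% of the histone RNA counts. *Hist2h4*, *Hist1h1e*, *Hist1h4d*, *Hist3h2a* and *Hist1h4c*, the 5 with the most footprints, held 51.1% of the histone footprints. By class, H2B genes held 41.2% of the summed RNA CPM and 12.3% of the footprint CPM, and H2A genes 28.0% and 11.9%. H4 genes showed the opposite, with 4.45% of the RNA and 49.0% of the footprints. H1 genes held 22.2% and 22.6%, and H3 genes 4.18% and 4.26%. These shares depend on the scale. Of the summed TPM, which allows for transcript length, H4 genes held 12.13%, H1 genes 12.75%, H2B genes 45.5%, H2A genes 25.6% and H3 genes 3.98%, and of the footprint CPM per kilobase H4 genes held 59.4% and H1 genes 13.05%.

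The stem-loop that defines these mRNAs was searched for in the 150 bases after each stop codon, on the coding strand, as a 6-base stem that starts with GG, a 4-base loop and the exact reverse complement of the stem. It was found in 65 of the 67 genes with a coding sequence (97.0%), 21 to 58 bases after the stop codon with a median of 30. The same search found it after the stop codon of 88 of 21565 other protein-coding genes (0.408%). A match is a description of the letters, not a measured structure. The most frequent form, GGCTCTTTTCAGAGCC, stands in 41 genes of different classes, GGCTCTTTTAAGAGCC in 9 and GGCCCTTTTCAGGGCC in 8. The search missed *Hist1h2an* and *Hist2h2be*.

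Stem-loops of 5 genes are printed to show how alike they are across classes and between genes with much and with little poly(A) RNA, with the 16 bases of stem and loop in capitals and 5 flanking bases on each side. They come from GRCm38.p6, 5′ to 3′ on the coding strand, at chr13:23739507-23739532 (plus strand), chr13:23684642-23684667 (plus), chr3:96270166-96270191 (plus), chr13:23698084-23698109 (minus) and chr3:96262934-96262959 (minus) in the order given.
Hist1h1c: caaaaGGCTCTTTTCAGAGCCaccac
Hist1h2bc: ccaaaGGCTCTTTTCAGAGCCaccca
Hist2h2bb: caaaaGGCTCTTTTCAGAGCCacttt
Hist1h4c: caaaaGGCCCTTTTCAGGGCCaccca
Hist2h4: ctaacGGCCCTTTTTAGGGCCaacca
*Hist1h2bc*, with the highest TPM of all members, and *Hist2h2bb*, with 0 RNA counts in all 9 libraries, have the same 16 bases.

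Annotated transcripts differ in how far they run past the hairpin. In 23 genes a coding transcript is annotated for at least 150 bases past the stem-loop, a distance chosen after the values were seen. They had a median of 1.002 TPM and of 51.7 RNA counts per library, and held 82.9% of the histone RNA counts and 72.7% of the footprints. In the other 42 genes with a stem-loop, the medians were 0.308 TPM and 1.67 RNA counts, and they held 8.27% of the RNA counts and 27.2% of the footprints. In 18 of these 42 the annotated transcript stops before the hairpin ends, so reads further downstream could not be assigned to them. The gap was smaller in TPM than in counts. Annotated length sets this split and also enters the counts, while TPM is scaled by it. Its part in either gap was not tested. *Hist2h2be*, an H2B gene for which the search gave no match and which was singled out after its values were seen, had 368 to 641 RNA counts (mean 8.30 TPM) but only 12 to 45 footprints in a library.

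Members resemble each other in sequence, which limits what can be said of a single gene. In coding windows of 30 bases, about the length of a footprint, a median of 86.5% of a member's windows occurred in the transcript of another gene. That gene need not be a member, since *Trim17* counts for *Hist3h2a* and *Gm42743* for *Hist2h2bb*. The measure thus mixes resemblance between members with other transcripts that hold the same sequence, those annotated over the same locus included. The median was 17.0% in H1, 90.8% in H2A, 85.5% in H2B, 90.8% in H3 and 78.4% in H4 genes. In 14 members, *Hist3h2a* among them, every window was shared, and 8 members have a coding sequence identical to that of another member. Footprint level followed this measure in part, with a Spearman rho of 0.45 between the number of unique windows and the mean footprint CPM across the 67 genes, 0.85 across the 13 H4 genes and −0.60 across the 6 H1 genes. How reads that match several genes were handled in the footprint counts is not given in the sources used here, so the ranking of footprints among members with shared sequence is uncertain. A comparison of the same gene between genotypes shares that limit in all libraries.

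Histone coding sequences contain little of the codon that the *n-Tr20* mutation affects. AGA made up 9 of the 815 arginine codons of the members (1.10%), against 23.3% of the arginine codons of 21744 other genes. No AGA was found in 59 of the 67 members, while 7.82% of the other genes had none. Arginine itself was frequent, at 9.04% of the members' codons against 5.55%. *Hist2h4* has 1 AGA codon, and the 7 members that passed a test between genotypes have none.

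For each pair of genotypes, edgeR's quasi-likelihood test was applied to every gene that had 5 or more counts in 3 or more of the 6 libraries, and a gene passed at an adjusted p (Benjamini-Hochberg over all genes tested) of at most 0.05. Of the 70 histone genes, 35 entered the RNA tests of each mutant against B6J and 34 that between the mutants, and 55 of 67 entered each footprint test. Genes left out had too few counts, so counts and medians below cover the tested members alone. Both mutants were compared with the same B6J libraries, so the comparisons are not independent of each other. Members measured in the same libraries, many with shared sequence, are not independent observations either. Counts of positive members and medians are descriptions and were not tested. In whole cerebellum, fewer cells that express a gene and less of its RNA per cell cannot be told apart.

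In the RNA of *Gtpbp1*-/- mice, 3 of 35 histone genes passed against B6J (8.57%), below the 13.8% of all 24577 genes tested. Higher levels were found for *Hist1h1c* and *Hist1h1d* and a lower level for *Hist3h2ba*. Among all genes that passed, 1449 of 3398 were higher, and with upper quartile normalization 1837 of 3349. The median log2 fold change of the 35 genes was 0.33, against 0.03 over all genes tested, and 23 of the 35 (65.7%) had a positive value, against 52.9%. DESeq2 called 4 of the 35 (against 17.4% of all genes). Without B6J replicate 3, 5 histone genes passed and the median was 0.57, and without *Gtpbp1*-/- replicate 1 the median was 0.56. In the RNA of *Gtpbp2*-/- mice, 0 of 35 histone genes passed with edgeR, where 8.63% of all genes did (898 of 2146 higher, and 1074 of 2015 with upper quartile normalization). An unadjusted p under 0.05 was reached by 5 of them (14.3%, against 22.5% of all genes), and DESeq2 called 1, *Hist1h2bc*, as lower (against 13.7% of all genes with DESeq2). The median log2 fold change was 0.03, but −0.18 without *Gtpbp2*-/- replicate 2 and 0.31 without *Gtpbp2*-/- replicate 1, so it has no stable sign. Leaving out *Gtpbp2*-/- replicate 1 or 2 also brought 1 gene past the threshold, *Hist3h2ba* and *Hist1h2bc* respectively.

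Footprints of *Gtpbp1*-/- mice gave 0 of 55 histone genes past the edgeR test against B6J, where 0.745% of all genes passed. An unadjusted p under 0.05 was reached by 19 histone genes, 18 of them higher, which is 34.5% against 12.6% of all genes. DESeq2 called 5 of 55, where it called 2.91% of all genes, with *Hist1h2ac*, *Hist1h2ak*, *Hist1h3b* and *Hist1h4f* higher and *Hist3h2ba* lower, and these names were taken after their values were seen. The median log2 fold change of the 55 genes was 0.58, against 0.01 over all genes, with 43 of 55 positive (78.2%, against 51.6%), and it was 0.37 without *Gtpbp1*-/- replicate 1. Without *Gtpbp1*-/- replicate 3, *Hist3h2ba* passed the edgeR test. In the 9 tested genes with at most 50% shared windows, the median was 0.15, with 6 of 9 positive, while in the other 46 it was 0.67, with 37 positive.

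Footprints of *Gtpbp2*-/- mice gave 5 of 55 histone genes past the edgeR test against B6J (9.09%), where 2.94% of all genes passed. Levels were lower for *Hist3h2ba*, *Hist1h1e*, *Hist1h4c* and *Hist3h2a* and higher for *Hist1h2bc*. This count depended on each library. It was 0 without *Gtpbp2*-/- replicate 1 or replicate 2, 3 without replicate 3, 1 without B6J replicate 1, 2 without B6J replicate 2 and 3 without B6J replicate 3. Upper quartile normalization gave 3 genes, 1 of them higher, and DESeq2 gave 6 of 55, against 4.75% of all genes. An unadjusted p under 0.05 was reached by 11 of 55, 1 of them higher (20%, against 17.1% of all genes). The median log2 fold change of the 55 genes was −0.06, against 0.01 over all genes, and 23 of 55 (41.8%, against 50.6%) were positive. With 1 library left out it lay between −0.17 (without *Gtpbp2*-/- replicate 1) and −0.05 (without B6J replicate 3), and with no filter on low counts it was −0.015.

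The mutants were also compared with each other. Since no member passed here, a call in a single mutant does not show that the mutants differ in that gene. In RNA, 0 of 34 histone genes passed the edgeR test, where 0.0595% of all genes did, while 5 had an unadjusted p under 0.05 (14.7%, against 3.57%) and DESeq2 called 0 (against 0.183%). In footprints, 0 of 55 histone genes passed the edgeR test, and 0% of all 14142 genes did, while 24 histone genes had an unadjusted p under 0.05 (43.6%, against 10.8% of all genes) and DESeq2 called 3 (against 0.707%). Of the 24, 23 were higher in *Gtpbp1*-/- mice. The median log2 difference in footprints was 0.62 toward *Gtpbp1*-/- mice, with 49 of 55 positive (89.1%, against 50.1%), and in the 9 genes with at most 50% shared windows it was 0.48, with 9 of 9 positive. Leaving out *Gtpbp1*-/- replicate 1 lowered the median over the 55 genes to 0.48. In RNA the median was 0.31, with 25 of 34 positive (73.5%, against 49.8%), and 0.16 without *Gtpbp1*-/- replicate 3.

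Sums weight the members by their abundance, so that H4 genes make up 49.0% of them in footprint CPM. The summed footprint CPM of all members was 2583, 2579 and 2623 in B6J, 3227, 2459 and 3039 in *Gtpbp1*-/- and 2125, 1917 and 2311 in *Gtpbp2*-/- mice. Every *Gtpbp1*-/- library stood above every *Gtpbp2*-/- library, and every *Gtpbp2*-/- library below every B6J library, while *Gtpbp1*-/- replicate 2 fell below B6J and its other libraries above. Summed RNA was 114.0, 108.0 and 127.9 CPM in B6J, 121.2, 130.5 and 127.1 in *Gtpbp1*-/- and 95.96, 125.1 and 100.1 in *Gtpbp2*-/- mice. There the 3 groups overlapped.

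**Figure D2:**
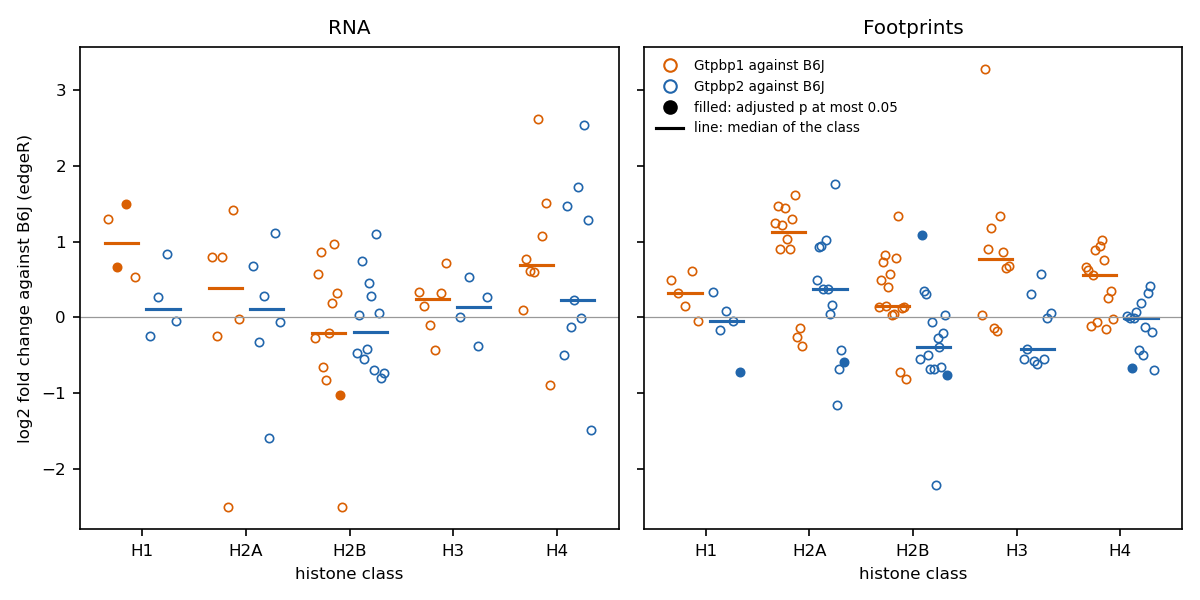
Each point is the log2 fold change against B6J (edgeR) of 1 tested histone gene, by class, in *Gtpbp1*-/- (orange) and *Gtpbp2*-/- mice (blue), for RNA on the left and footprints on the right. Filled points have an adjusted p of at most 0.05 and lines mark the class median, which for H2A footprints was 1.12 in *Gtpbp1*-/- and 0.37 in *Gtpbp2*-/- mice.

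By class median, linker histone H1 genes share the smallest part of their coding windows, at 17.0%. Among them *Hist1h1c*, *Hist1h1d* and *Hist1h1e* share 29.2%, 35.0% and 30.9%, more than the H4 gene *Hist2h4* (13.8%). *Hist1h1c*, which encodes the H1.2 subtype, lies at chr13:23738808-23740367 on the plus strand and was the H1 gene with the highest TPM. Its RNA was at 17.5, 21.3 and 27.1 TPM in B6J, at 44.3, 37.7 and 35.9 TPM in *Gtpbp1*-/- and at 26.6, 33.1 and 29.1 TPM in *Gtpbp2*-/- mice. All *Gtpbp1*-/- libraries stood above the other 6, while B6J and *Gtpbp2*-/- libraries overlapped. Against B6J the log2 fold change in *Gtpbp1*-/- mice was 0.66 ± 0.15 (SE) with an edgeR adjusted p of 0.0127. Over 13 alternatives the adjusted p was between 9.27e-07 and 0.0605, and it missed the threshold without *Gtpbp1*-/- replicate 1 (0.0605) and without B6J replicate 2 (0.0560). Footprints of *Hist1h1c* overlapped between all groups, at 364.4, 207.1 and 200.6 CPM per kilobase in B6J, 276.5, 261.3 and 318.4 in *Gtpbp1*-/- and 238.5, 257.7 and 326.7 in *Gtpbp2*-/- mice.

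*Hist1h1d*, the gene of subtype H1.3, lies at chr13:23553262-23560686 on the plus strand. Its RNA was near the bottom of the scale, at 0.147, 0.180 and 0.177 TPM in B6J, 0.647, 0.496 and 0.440 TPM in *Gtpbp1*-/- and 0.275, 0.390 and 0.343 TPM in *Gtpbp2*-/- mice. The groups did not overlap, with B6J lowest and *Gtpbp1*-/- highest. In *Gtpbp1*-/- mice the log2 fold change was 1.497 ± 0.35 (SE, edgeR adjusted p = 0.0127), on 23 to 31 counts in B6J and 52 to 92 in the mutant libraries. The call was lost without *Gtpbp1*-/- replicate 1 (adjusted p = 0.0740, within a range of 0.00266 to 0.0740 over 13 alternatives). In *Gtpbp2*-/- mice the log2 fold change of 0.84 did not pass (edgeR adjusted p = 0.213). *Hist1h1d* footprints were at 105.8, 138.5 and 108.0 CPM per kilobase in B6J, 184.1, 146.7 and 204.8 in *Gtpbp1*-/- and 116.3, 134.1 and 93.9 in *Gtpbp2*-/- mice. *Gtpbp1*-/- libraries were again above all others, but the log2 fold change of 0.61 did not pass (edgeR adjusted p = 0.194).

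*Hist1h1e*, the gene of subtype H1.4, lies at chr13:23620629-23622558 on the minus strand and had the most footprints among H1 genes. They were at 507.7, 388.3 and 447.4 CPM per kilobase in B6J, 513.5, 409.3 and 376.1 in *Gtpbp1*-/- and 286.3, 243.2 and 290.4 in *Gtpbp2*-/- mice. *Gtpbp2*-/- libraries were below the other 6, which overlapped. Against B6J the log2 fold change in *Gtpbp2*-/- mice was −0.72 ± 0.16 (SE, edgeR adjusted p = 0.0212), and 8 of 11 alternatives kept the call. The adjusted p was between 0.00220 and 0.126 over them, at 0.0991 without *Gtpbp2*-/- replicate 1, 0.126 without *Gtpbp2*-/- replicate 2 and 0.102 without B6J replicate 1. Between the mutants the log2 difference was 0.66 (edgeR adjusted p = 0.250). *Hist1h1e* RNA overlapped between groups, at 1.29, 1.41 and 2.01 TPM in B6J, 1.63, 2.85 and 3.16 in *Gtpbp1*-/- and 0.735, 2.26 and 2.05 in *Gtpbp2*-/- mice.

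Among H2A genes, *Hist3h2a* had the highest mean level over the 9 libraries in both assays. It lies at chr11:58954685-58956830 on the plus strand. Every 30-base window of its coding sequence also occurs in an annotated transcript of *Trim17*, which covers the locus. Its footprints were at 628.9, 564.2 and 722.6 CPM per kilobase in B6J, 579.3, 456.3 and 440.0 in *Gtpbp1*-/- and 444.3, 406.4 and 424.0 in *Gtpbp2*-/- mice. *Gtpbp2*-/- libraries lay below all B6J libraries, and *Gtpbp1*-/- libraries overlapped both. The log2 fold change in *Gtpbp2*-/- mice was −0.60 ± 0.15 (SE, edgeR adjusted p = 0.0457). This is a borderline value, kept in 4 of 11 alternatives with an adjusted p from 0.0145 to 0.177. It was lost without *Gtpbp2*-/- replicate 1 (0.151), replicate 2 (0.177) or replicate 3 (0.102) and without B6J replicate 1 (0.114) or replicate 3 (0.0980), and also with upper quartile normalization (0.0581) and in a joint fit of 9 libraries (0.0762).

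*Hist3h2a* RNA was even across groups, with 27.2, 21.5 and 28.3 TPM in B6J, 28.7, 29.5 and 26.1 in *Gtpbp1*-/- and 26.4, 29.3 and 26.3 in *Gtpbp2*-/- mice, and no test against B6J passed (edgeR adjusted p = 0.936 and 0.824). *Trim17*, looked up because of this overlap and so after its values were seen, had more RNA in the mutants, with 7.81, 6.78 and 6.85 CPM in B6J, 24.6, 26.8 and 30.3 in *Gtpbp1*-/- and 10.4, 23.2 and 22.4 in *Gtpbp2*-/- mice. Its log2 fold changes were 1.93 (edgeR adjusted p = 5.86e-07) and 1.38 (edgeR adjusted p = 0.0160). How the reads of the shared stretch were divided between the genes was not tested. *Hist2h2aa2*, an H2A gene with a coding sequence identical to that of *Hist2h2aa1*, had 0, 2.46 and 24.0 TPM in B6J, 30.4, 36.3 and 27.6 in *Gtpbp1*-/- and 31.4, 22.2 and 13.8 in *Gtpbp2*-/- mice. In *Gtpbp1*-/- mice its mean TPM was above that of *Hist3h2a*. B6J libraries were far apart, and footprints numbered 0 to 7 in each library, so its values are uncertain. RNA of the copy *Hist2h2aa1* went the other way, with mean CPM of 5.31 in B6J, 0.964 in *Gtpbp1*-/- and 1.75 in *Gtpbp2*-/- mice. Its log2 fold changes were −2.51 and −1.60, against 1.41 and 1.11 for *Hist2h2aa2*, and none of these passed with edgeR.

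In *Gtpbp1*-/- footprints, edgeR called 0 of 12 tested H2A genes (against 0.745% of all genes) and DESeq2 called 2 (against 2.91%). The median log2 fold change of the 12 tested H2A genes was 1.12, with 9 positive (75%, against 51.6% of all genes), and 6 of the 12 had an unadjusted p under 0.05 (50%, against 12.6%), all of them higher. The 9 positive genes had a mean of 8.22 to 81.7 footprints in a library, against 1278 for *Hist3h2a*. Summed footprint CPM of the class was 336.8, 329.6 and 364.2 in B6J, 373.1, 274.8 and 289.6 in *Gtpbp1*-/- and 273.0, 228.2 and 247.3 in *Gtpbp2*-/- mice. For *Gtpbp1*-/- mice, the sum of this class was lower than in B6J in replicates 2 and 3, while its median log2 fold change was positive.

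Among H2B genes, *Hist3h2ba* had the lowest edgeR adjusted p against B6J in *Gtpbp1*-/- RNA and in the footprints of both mutants. In *Gtpbp2*-/- RNA that of *Hist1h2bc* was lower (0.0869 against 0.201). *Hist3h2ba* lies at chr11:58948920-58949533 on the plus strand, next to *Hist3h2a*. Its RNA was at 46.0, 43.0 and 48.7 TPM in B6J, 31.6, 25.4 and 22.7 in *Gtpbp1*-/- and 44.8, 28.0 and 15.8 in *Gtpbp2*-/- mice. *Gtpbp1*-/- libraries were below all B6J libraries, while *Gtpbp2*-/- libraries spread in TPM from the B6J range to the lowest value of all, and in CPM, the scale of the test, all 3 were below all B6J libraries. The log2 fold change was −1.03 ± 0.18 (SE, edgeR adjusted p = 0.00169) in *Gtpbp1*-/- mice, and it passed in 12 of 13 alternatives, with an adjusted p of 0.0510 in a joint fit of the 9 libraries (1.08e-06 to 0.0510 over the alternatives). In *Gtpbp2*-/- mice it was −0.80 (edgeR adjusted p = 0.201), and −1.27 without *Gtpbp2*-/- replicate 1, when it passed (0.0136, with 0.0136 to 0.403 over 13 alternatives).

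Footprints of *Hist3h2ba* were at 297.1, 280.8 and 238.9 CPM per kilobase in B6J, 129.7, 156.1 and 177.4 in *Gtpbp1*-/- and 145.5, 174.6 and 166.4 in *Gtpbp2*-/- mice. Both mutants lay below B6J in every library and overlapped each other. The log2 fold change was −0.76 ± 0.16 (SE, edgeR adjusted p = 0.0212) in *Gtpbp2*-/- mice. For *Gtpbp1*-/- mice it was −0.82 and did not pass (edgeR adjusted p = 0.0777), although DESeq2 called it (adjusted p = 0.0117) and so did edgeR in the joint fit of 9 libraries (0.0352) and without *Gtpbp1*-/- replicate 3 (0.0396), the 3 of 11 alternatives that did, within a range of 0.0117 to 0.2999. The call in *Gtpbp2*-/- mice was lost without any of their replicates 1, 2 and 3 (adjusted p = 0.137, 0.0671 and 0.0504) and without B6J replicate 1 or 2 (0.0954 and 0.0670), within a range of 0.00314 to 0.137. The log2 fold change itself stayed between −0.84 and −0.69 over the same 11 alternatives.

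*Hist1h2bc* is the H2B gene with the highest TPM and lies at chr13:23684199-23692908 on the plus strand. Its longest annotated transcript runs 8246 bases past the hairpin. RNA was at 65.3, 59.0 and 57.3 TPM in B6J, 48.6, 60.9 and 59.6 in *Gtpbp1*-/- and 39.5, 62.4 and 44.4 in *Gtpbp2*-/- mice. Footprints were at 58.1, 44.5 and 25.0 CPM per kilobase in B6J, 79.0, 45.2 and 53.9 in *Gtpbp1*-/- and 106.6, 81.5 and 82.5 in *Gtpbp2*-/- mice. In footprints all *Gtpbp2*-/- libraries were above the other 6, whereas in RNA *Gtpbp2*-/- replicates 1 and 3 were below all B6J libraries in TPM. In CPM, all libraries of both mutants were below all B6J libraries, with a log2 fold change of −0.28 in *Gtpbp1*-/- mice that did not pass (edgeR adjusted p = 0.1285). The log2 fold change in *Gtpbp2*-/- mice was 1.09 ± 0.28 (SE, edgeR adjusted p = 0.0472) for footprints and −0.48 for RNA, which missed the threshold (edgeR adjusted p = 0.0869) but passed in 3 of 13 alternatives, with DESeq2 (0.0278), with no filter on low counts (0.0139) and without *Gtpbp2*-/- replicate 2 (0.0119, in a range of 0.0119 to 0.273). Whether the assays differ for this gene was not tested.

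The footprint call of *Hist1h2bc* was borderline. It was kept in 5 of 11 alternatives, and lost without *Gtpbp2*-/- replicates 1, 2 or 3 (adjusted p = 0.226, 0.113 and 0.0719) and without B6J replicate 2 or 3 (0.141 and 0.0719) and in a joint fit of 9 libraries (0.0755), in a range of 0.00959 to 0.226. The log2 difference between the mutants was −0.61 (edgeR adjusted p = 0.411). All its coding windows occur in other genes, so its footprints cannot be told apart from those of other H2B copies. *Hist2h2bb*, at chr3:96269752-96270132 on the plus strand, had the most footprints among H2B genes, with 386.9, 311.5 and 403.1 CPM per kilobase in B6J, 493.2, 387.5 and 311.9 in *Gtpbp1*-/- and 273.8, 287.2 and 399.6 in *Gtpbp2*-/- mice. The 3 groups overlapped. Its RNA was at 0 in all 9 libraries, which allows up to 0.0576 to 0.0794 CPM in a library for counting error alone, and its annotated transcript has no base after the stop codon. Of its coding windows 59.9% occur in other genes, *Gm42743* among them. How RNA reads were divided between these genes was not tested.

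H3 genes had little signal in either assay and gave 0 calls with edgeR against B6J. An unadjusted p under 0.05 was reached by 0 of 6 in *Gtpbp1*-/- and 0 of 4 in *Gtpbp2*-/- RNA (against 26.3% and 22.5% of all genes), by 4 of 10 in *Gtpbp1*-/- footprints (40%, against 12.6%) and by 2 of 9 in *Gtpbp2*-/- footprints (22.2%, against 17.1%), and DESeq2 called 1, in *Gtpbp1*-/- footprints (against 2.91% of all genes there). *Hist1h3e*, at chr13:23561534-23562369 on the minus strand, had the most footprints of the class. They were at 65.9, 95.9 and 53.7 CPM per kilobase in B6J, 72.9, 54.2 and 67.4 in *Gtpbp1*-/- and 44.8, 52.2 and 48.5 in *Gtpbp2*-/- mice. *Gtpbp2*-/- libraries were below all B6J libraries, with a log2 fold change of −0.58 that did not pass (edgeR adjusted p = 0.231). *Hist2h3c1*, with the highest TPM of the class, had 0, 3.16 and 5.16 TPM in B6J, 4.49, 4.13 and 2.97 in *Gtpbp1*-/- and 1.56, 3.77 and 1.77 in *Gtpbp2*-/- mice, with a single footprint in all 9 libraries. All its coding windows are shared, so its footprints cannot be told apart from those of its copies. Sharing outside the coding sequence was not measured. Over the class, 10 of 10 tested genes had a higher footprint level in *Gtpbp1*-/- than in *Gtpbp2*-/- mice, with a median log2 difference of 0.71, and 4 of them had an unadjusted p under 0.05 (40%, against 10.8% of all genes), while edgeR and DESeq2 called 0.

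H4 genes encode nearly the same protein from many loci and held about as many footprints as all other classes together. Summed footprint CPM of the 13 genes was 1122, 1275 and 1285 in B6J, 1606, 1151 and 1701 in *Gtpbp1*-/- and 1030, 868.4 and 1166 in *Gtpbp2*-/- mice. *Gtpbp1*-/- replicates 1 and 3 were above all other libraries, and *Gtpbp1*-/- replicate 2 was within the range of B6J. *Hist2h4*, at chr3:96261682-96263311 on the minus strand, shares 13.8% of its windows and had the most footprints of all members. They were at 1070, 1457 and 1415 CPM per kilobase in B6J, 1622, 1203 and 2189 in *Gtpbp1*-/- and 1089, 882.0 and 1487 in *Gtpbp2*-/- mice, which overlap. Its RNA was at 0.227, 0.380 and 0.623 TPM in B6J, 0.867, 1.71 and 1.47 in *Gtpbp1*-/- and 0.966, 1.53 and 0.867 in *Gtpbp2*-/- mice. In RNA both mutants lay above B6J in every library.

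The RNA log2 fold change of *Hist2h4* was 1.52 in *Gtpbp1*-/- mice and missed the threshold (edgeR adjusted p = 0.0643), but it passed in 4 of 13 alternatives, with DESeq2 (0.0412), with no filter on low counts (0.0426), in the joint fit of 9 libraries (0.0422) and without B6J replicate 3 (0.0208), in a range of 0.0208 to 0.273. In *Gtpbp2*-/- mice it was 1.28 (edgeR adjusted p = 0.1603). *Hist1h4c*, at chr13:23697635-23698454 on the minus strand, was the H4 gene that passed in footprints. They were at 776.4, 820.0 and 590.0 CPM per kilobase in B6J, 677.5, 624.5 and 715.3 in *Gtpbp1*-/- and 431.0, 416.8 and 529.1 in *Gtpbp2*-/- mice. *Gtpbp2*-/- libraries were below the other 6. Against B6J their log2 fold change was −0.68 ± 0.17 (SE, edgeR adjusted p = 0.0438).

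The *Hist1h4c* call was kept in 4 of 11 alternatives, in a range of 0.0137 to 0.210. It was lost without *Gtpbp2*-/- replicate 1 (adjusted p = 0.210) or 2 (0.190) and without B6J replicate 1 (0.144) or 2 (0.161), and also with upper quartile normalization (0.0541), in a joint fit of 9 libraries (0.0599) and with a replicate block (0.0534). Its RNA had 0 to 21 counts in a library and did not pass (edgeR adjusted p = 0.956 and 0.846). *Hist1h4d* footprints were at 585.0, 469.3 and 736.6 CPM per kilobase in B6J, 1037, 678.2 and 913.2 in *Gtpbp1*-/- and 676.8, 465.2 and 643.8 in *Gtpbp2*-/- mice. *Gtpbp1*-/- libraries were the 3 highest but for B6J replicate 3, and the log2 fold change of 0.55 did not pass (edgeR adjusted p = 0.294). *Hist1h4h*, with the highest TPM of the class, was at 10.3, 4.39 and 7.74 TPM in B6J, 11.2, 12.5 and 18.8 in *Gtpbp1*-/- and 3.50, 11 and 9.36 in *Gtpbp2*-/- mice, with *Gtpbp1*-/- libraries above the other 6 in TPM. In CPM, the scale of the test, they overlapped B6J, and edgeR made no call (adjusted p = 0.380).

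**Figure D3:**
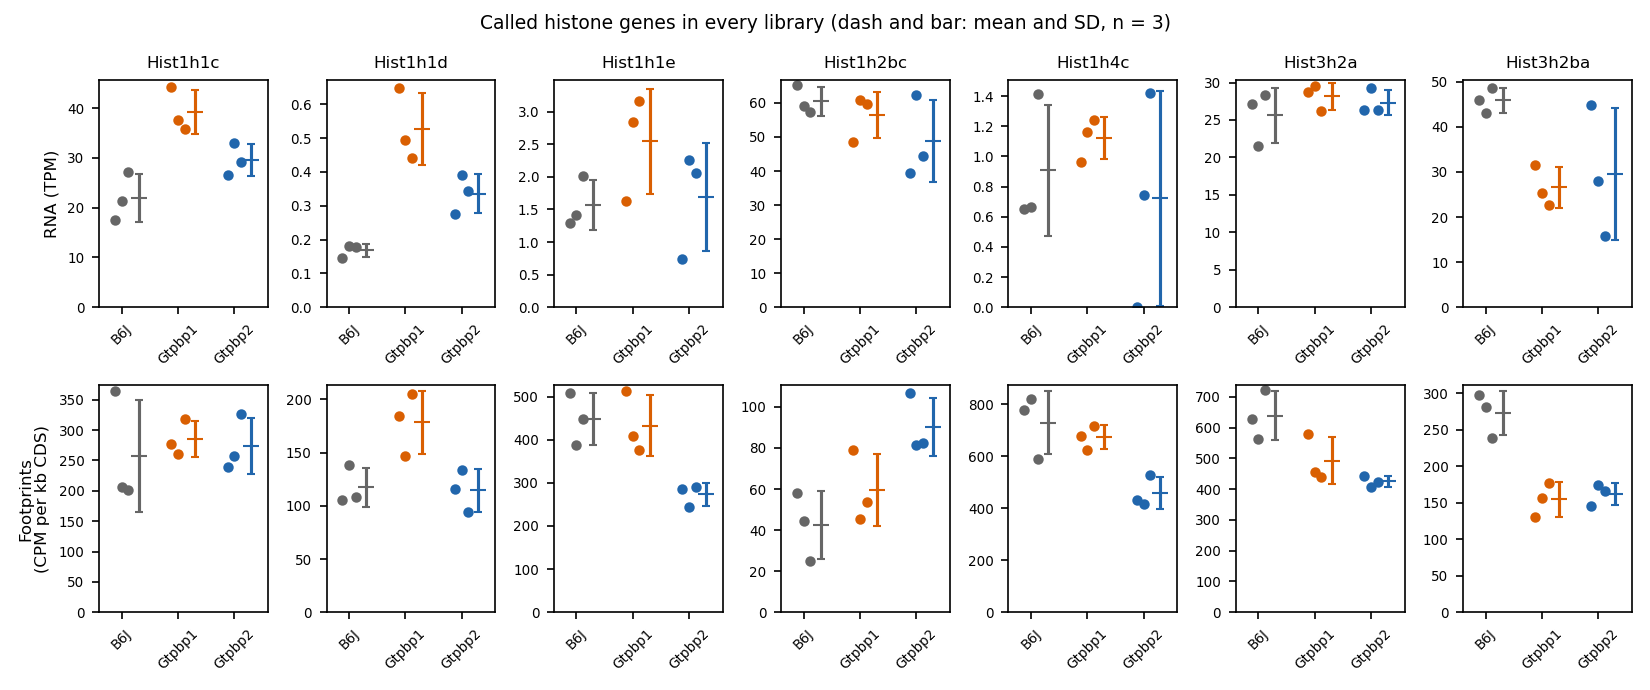
RNA in TPM (top) and footprints in CPM per kilobase of coding sequence (bottom) of the 7 histone genes that passed a test against B6J, with 1 dot per library and the mean and SD of 3 libraries beside the dots. In footprints of *Hist1h1e*, *Hist1h4c*, *Hist3h2a* and *Hist3h2ba* the 3 *Gtpbp2*-/- libraries sit below the 3 B6J libraries, and in those of *Hist1h2bc* above.

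Genes that act with or beside the replication-dependent genes were read from 4 lists. Genes listed as replacement variants had far more RNA than the members, with a median of 58.7 TPM against 0.562. Whether each of them is made outside S phase was not tested. In *Gtpbp1*-/- RNA, 5 of 11 passed (45.5%, against 13.8% of all genes), with higher levels of *H2afz* (log2 fold change 0.55, edgeR adjusted p = 0.000192), *H3f3b* (0.59, 0.00252) and *H1f0* (0.28, 0.0307) and lower levels of *H2afx* (−0.92, 0.00177) and *H3f3a* (−0.48, 0.00379). *H2afz* encodes H2A.Z and was at 101.8, 104.8 and 98.9 CPM in B6J, 154.1, 143.0 and 148.6 in *Gtpbp1*-/- and 137.2, 151.7 and 136.1 in *Gtpbp2*-/- mice, both mutants above B6J in every library. *H3f3b* and *H3f3a* encode the same H3.3 protein and passed in opposite directions in *Gtpbp1*-/- RNA. For *Gtpbp2*-/- RNA, 1 of 11 passed (9.09%, against 8.63% of all genes), *H2afz* (log2 fold change 0.48, edgeR adjusted p = 0.00320). DESeq2 called 4 of the 11 there, 2 higher and 2 lower (against 13.7% of all genes), and 6 of the 11 had an unadjusted p under 0.05 (54.5%, against 22.5%). In their footprints, *H1f0* alone passed (1 of 11, or 9.09%, against 2.94% of all genes), lower in *Gtpbp2*-/- mice (log2 fold change −0.60, edgeR adjusted p = 0.0487).

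Neither *H1f0* call was stable. In RNA the call was lost without *Gtpbp1*-/- replicate 1 (adjusted p = 0.102) or 3 (0.0596) and without B6J replicate 1 (0.133) or 2 (0.0705), and also in the joint fit of 9 libraries (0.0702) and with the replicate block (0.102), in a range of 0.00541 to 0.133. In footprints it was lost without *Gtpbp2*-/- replicates 1, 2 or 3 (adjusted p = 0.127, 0.181 and 0.125) and without B6J replicate 1 (0.181) or 2 (0.107), and also with upper quartile normalization (0.0568) and in the joint fit (0.0646), in a range of 0.0163 to 0.181. Among *Gtpbp1*-/- footprints, 0 of 11 variants passed with edgeR, 1 had an unadjusted p under 0.05 (9.09%, against 12.6% of all genes) and DESeq2 called 0, while 9 of 11 were positive (81.8%, against 51.6%). Between the mutants, 10 of 11 variants had more footprints in *Gtpbp1*-/- mice (90.9%, against 50.1% of all genes), with 4 at an unadjusted p under 0.05 (36.4%, against 10.8%), 0 called by edgeR and 1 by DESeq2 (against 0.707% of all genes). Their summed footprint CPM was 1081, 1119 and 1056 in B6J, 1220, 1144 and 1340 in *Gtpbp1*-/- and 913.3, 874.2 and 939.7 in *Gtpbp2*-/- mice. The 3 groups did not overlap, with *Gtpbp1*-/- libraries highest and *Gtpbp2*-/- libraries lowest.

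Of 18 genes for the synthesis, 3′ end processing and decay of histone mRNA, 1 passed in *Gtpbp1*-/- RNA (5.56%, against 13.8% of all genes), *Mif4gd*, which encodes a partner of Slbp in translation (log2 fold change −0.37, edgeR adjusted p = 0.0381). It missed the threshold without *Gtpbp1*-/- replicate 2 (0.121) or 3 (0.128) and without B6J replicate 1 (0.123) or 2 (0.0736), and also with upper quartile normalization (0.0783), the replicate block (0.0671) and the offset for transcript length (0.132), in a range of 0.0143 to 0.132. *Slbp* itself was level, with RNA at 30.9, 33.0 and 31.1 CPM in B6J, 29.1, 31.0 and 30.8 in *Gtpbp1*-/- and 32.5, 29.7 and 30.7 in *Gtpbp2*-/- mice. *Npat*, which activates histone gene transcription, did not pass in RNA (log2 fold changes 0.16 and 0.18, edgeR adjusted p = 0.342 and 0.2995). In *Gtpbp2*-/- RNA 0 of the 18 passed with edgeR (against 8.63% of all genes), with 1 at an unadjusted p under 0.05 (5.56%, against 22.5%) and 1 called by DESeq2 (against 13.7%). In footprints 0 of 17 tested genes passed with edgeR in either mutant, with 2 in *Gtpbp1*-/- (11.8%, against 12.6% of all genes) and 1 in *Gtpbp2*-/- mice (5.88%, against 17.1%) at an unadjusted p under 0.05 and 0 called by DESeq2. Of 12 histone chaperones and acetylation factors, *Asf1a* alone passed in *Gtpbp1*-/- RNA (8.33%, against 13.8% of all genes, log2 fold change 0.43, edgeR adjusted p = 0.0440), but with an offset for transcript length its log2 fold change was 0.06 (adjusted p = 0.840, in a range of 0.00316 to 0.840), and it also missed without *Gtpbp1*-/- replicate 2 (0.0850) or 3 (0.189) and B6J replicate 1 (0.155) or 3 (0.0903) and with the replicate block (0.0848). In *Gtpbp2*-/- RNA 0 of 12 passed with edgeR, with 2 at an unadjusted p under 0.05 (16.7%, against 22.5% of all genes) and DESeq2 calling 1 (against 13.7%). In footprints 0 passed in either mutant, with 0 of 12 in *Gtpbp1*-/- (against 12.6%) and 2 of 11 in *Gtpbp2*-/- mice (18.2%, against 17.1%) at an unadjusted p under 0.05 and 0 by DESeq2.

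S phase and proliferation genes, a list of 19, had a positive RNA log2 fold change for 18 genes in each mutant (94.7%, against 52.9% of all genes in *Gtpbp1*-/- and 53% in *Gtpbp2*-/- mice). In *Gtpbp1*-/- RNA, 6 of 19 passed, all higher (31.6%, against 13.8% of all genes in either direction), among them *Mcm6* (log2 fold change 1.06, edgeR adjusted p = 0.00259), *Ccna2* (0.99, 0.0164), *Mcm3* (0.85, 0.0174) and *Mcm7* (0.56, 0.00425). Of the same genes, 3 passed in *Gtpbp2*-/- RNA, all higher (15.8%, against 8.63% of all genes in either direction), which were *Ccna2* (log2 fold change 0.93, edgeR adjusted p = 0.0494), *Mcm3* (0.90, 0.0321) and *Mcm7* (0.62, 0.00388), while DESeq2 called 5 (against 13.7%). The *Mcm6* and *Mcm7* calls were kept in 13 of 13 alternatives. *Mcm6*, part of the replicative helicase, was at 6.38, 6.89 and 4.33 CPM in B6J, 10.01, 13.8 and 12.8 in *Gtpbp1*-/- and 6.68, 12.1 and 14.2 in *Gtpbp2*-/- mice. In footprints 0 of the tested genes passed with edgeR in either mutant, with 6 of 17 in *Gtpbp1*-/- (35.3%, against 12.6% of all genes) and 2 of 16 in *Gtpbp2*-/- mice (12.5%, against 17.1%) at an unadjusted p under 0.05 and 0 called by DESeq2. Positive footprint values were found for 14 of 17 (82.4%, against 51.6%) and 12 of 16 (75%, against 50.6%) of them, and between the mutants 13 of 17 were higher in *Gtpbp1*-/- mice (76.5%, against 50.1%), with 1 at an unadjusted p under 0.05 (5.88%, against 10.8%) and 0 called. Summed RNA of the list was 165.6, 169.0 and 162.5 CPM in B6J, 195.3, 209.2 and 230.9 in *Gtpbp1*-/- and 176.8, 225.6 and 219.6 in *Gtpbp2*-/- mice, both mutants above B6J in every library.

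Calls of *Ccna2*, a cyclin, and *Mcm3*, part of the same helicase as *Mcm6*, were lost under several alternatives. The *Ccna2* call in *Gtpbp1*-/- RNA was lost without *Gtpbp1*-/- replicate 2 (edgeR adjusted p = 0.0912) or 3 (0.0520) and without B6J replicate 1 (0.0542) or 2 (0.0517), in a range of 0.000541 to 0.0912. That of *Mcm3* was lost without *Gtpbp1*-/- replicate 1 (edgeR adjusted p = 0.0633) or 3 (0.0847) and without B6J replicate 2 (0.0613), in a range of 0.00189 to 0.0847. For *Gtpbp2*-/- RNA, *Ccna2* was lost without *Gtpbp2*-/- replicate 2 (edgeR adjusted p = 0.181) or 3 (0.132) and without B6J replicate 1 (0.144) or 2 (0.125), and also with protein-coding transcripts alone (0.0730) and the offset for transcript length (0.0759), in a range of 0.00593 to 0.181. Its *Mcm3* call was lost without *Gtpbp2*-/- replicate 2 (edgeR adjusted p = 0.108) or 3 (0.154) and without B6J replicate 1 (0.0739), 2 (0.106) or 3 (0.0625), and also with the replicate block (0.05997), in a range of 0.00257 to 0.154. The further calls in *Gtpbp1*-/- RNA, looked at after their values were seen, were those of *Mcm5* and *Tyms*. *Mcm5* (log2 fold change 0.56, edgeR adjusted p = 0.0320) was kept in 6 of 13 alternatives, and lost without *Gtpbp1*-/- replicates 1, 2 or 3 (0.0830, 0.1199 and 0.0789), without B6J replicate 2 or 3 (0.0736 and 0.0662), with the replicate block (0.0630) and with the offset (0.0537), in a range of 0.00751 to 0.1199. *Tyms* (log2 fold change 0.72, edgeR adjusted p = 0.0439) was kept in 5 of 13, and lost without *Gtpbp1*-/- replicates 1, 2 or 3 (0.0636, 0.1655 and 0.128), without B6J replicate 1 or 3 (0.1155 and 0.0861), with the replicate block (0.0829), protein-coding transcripts alone (0.2295) and the offset (0.129), in a range of 0.0131 to 0.2295.

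*Pcna*, the sliding clamp, was at 44.6, 46.0 and 41.5 CPM of RNA in B6J, 51.2, 50.3 and 53.0 in *Gtpbp1*-/- and 45.1, 53.3 and 53.2 in *Gtpbp2*-/- mice and passed in neither mutant (edgeR adjusted p = 0.0838 and 0.234). Neither did *Mki67* (edgeR adjusted p = 0.252 and 0.1495) or *Top2a* (0.197 and 0.417), whose RNA in each mutant exceeded the highest B6J library in 2 of 3 libraries. DESeq2 called *Mki67* as higher in *Gtpbp2*-/- RNA (DESeq2 adjusted p = 0.0444) but not in *Gtpbp1*-/- RNA (0.0518).

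Markers of cell types were read beside these results. Against B6J, 13.8% of all genes passed with edgeR in *Gtpbp1*-/- RNA, 8.63% in *Gtpbp2*-/- RNA, 0.745% in *Gtpbp1*-/- footprints and 2.94% in *Gtpbp2*-/- footprints, and 12.6% and 17.1% had an unadjusted p under 0.05 in the footprints of the 2 mutants. DESeq2 called 17.4%, 13.7%, 2.91% and 4.75% of all genes in the same order of comparisons, and 0.707% in footprints between the mutants. Granule neuron markers (5 of 5 found, *Gabra6* most abundant in footprints) had summed footprint levels of 2389, 4018 and 3001 CPM in B6J, 2286, 1600 and 2256 in *Gtpbp1*-/- and 1502, 1240 and 1442 in *Gtpbp2*-/- mice, lower in each mutant library than in any B6J library. In RNA 5 of 5 passed as lower in *Gtpbp1*-/- (100%, against 13.8% of all genes in either direction) and 4 of 5 in *Gtpbp2*-/- mice (80%, against 8.63%). In footprints 4 of 5 passed in *Gtpbp2*-/- mice (80%, against 2.94%) and 0 in *Gtpbp1*-/- mice (against 0.745%), where 4 had an unadjusted p under 0.05 (80%, against 12.6%) and DESeq2 called 0. Of the 3 granule neuron progenitor markers, *Mki67* is also on the S phase list, *Atoh1* had 0 footprints in all 9 libraries, and the summed footprints were 4.03, 3.52 and 5.08 CPM in B6J, 18.2, 10.2 and 10.02 in *Gtpbp1*-/- and 5.47, 7.70 and 3.58 in *Gtpbp2*-/- mice, with *Mfap4* most abundant. Their RNA sums overlapped, at 6.89, 3.97 and 4.59 CPM in B6J, 3.52, 9.70 and 11.5 in *Gtpbp1*-/- and 4.97, 11.05 and 8.68 in *Gtpbp2*-/- mice. Of 2 tested in RNA, edgeR called 0 in either mutant (against 13.8% and 8.63% of all genes), and DESeq2 called 0 and 1. Microglial markers (4 of 4 found, *Csf1r* most abundant) summed to 111.4, 143.6 and 116.6 CPM of footprints in B6J, 253.3, 164.2 and 320.2 in *Gtpbp1*-/- and 149.0, 160.3 and 182.1 in *Gtpbp2*-/- mice. Of these 4, 2 passed as higher in the RNA of each mutant (50%, against 13.8% and 8.63% of all genes) and 0 in footprints with edgeR, where 4 in *Gtpbp1*-/- (100%, against 12.6%) and 1 in *Gtpbp2*-/- mice (25%, against 17.1%) had an unadjusted p under 0.05 and DESeq2 called 2 and 0. Endothelial markers (3 of 3, *Cldn5* most abundant) summed to 214.5, 135.8 and 234.1 CPM in B6J, 506.9, 367.4 and 302.5 in *Gtpbp1*-/- and 432.8, 348.3 and 379.0 in *Gtpbp2*-/- mice, with 2 of 3 passing as higher in the RNA (66.7%, against 13.8% and 8.63%) and 1 of 3 in the footprints of each mutant (33.3%, against 0.745% and 2.94%), where DESeq2 called 2. Between the mutants, edgeR and DESeq2 called 0 footprint genes of these 4 lists, while an unadjusted p under 0.05 was reached by 4 of 5 granule neuron, 2 of 2 tested progenitor and 3 of 4 microglial markers (80%, 100% and 75%, against 10.8% of all genes), all higher in *Gtpbp1*-/- mice, and by 0 of 3 endothelial markers. The part of these cell types in the histone footprints, with their positive median log2 difference between the mutants, was not tested.

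Markers of tissue outside the brain differed between libraries too. Bone markers (5 of 5, *Col1a1* most abundant) summed to 272.9, 658.1 and 885.8 CPM of footprints in B6J, 1567, 1378 and 2620 in *Gtpbp1*-/- and 605.8, 972.0 and 474.6 in *Gtpbp2*-/- mice. Marrow myeloid markers (7 of 7, *S100a8* most abundant) summed to 7.61, 2.42 and 20.8 CPM in B6J, 28.8, 35.9 and 24.9 in *Gtpbp1*-/- and 5.94, 13.2 and 10.2 in *Gtpbp2*-/- mice. Skeletal muscle markers (4 of 4, *Acta1* most abundant) summed to 5.82, 15.9 and 12.2 CPM in B6J, 29.1, 14.6 and 40.6 in *Gtpbp1*-/- and 3.28, 7.70 and 3.09 in *Gtpbp2*-/- mice. In all 3 lists *Gtpbp1*-/- libraries were the highest, apart from *Gtpbp1*-/- replicate 2 for muscle, which lay within the B6J range. Red cell markers (6 of 6, *Hbb-bs* most abundant) summed to 618.0, 455.8 and 997.3 CPM in B6J, 2241, 737.1 and 1330 in *Gtpbp1*-/- and 957.8, 3191 and 761.2 in *Gtpbp2*-/- mice. For *Gtpbp1*-/- footprints, edgeR called 0 genes of these lists, while an unadjusted p under 0.05 was reached by 4 of 5 bone, 5 of 6 tested marrow, 2 of 4 muscle and 2 of 6 red cell genes (80%, 83.3%, 50% and 33.3%, against 12.6% of all genes), and DESeq2 called 1, 0, 1 and 1 (against 2.91% of all genes). For *Gtpbp2*-/- footprints, edgeR called 0 as well, with 0 bone, 0 of 2 tested marrow, 1 of 1 tested muscle and 0 red cell genes at an unadjusted p under 0.05 (against 17.1% of all genes) and 1 muscle gene called by DESeq2 (against 4.75%). Between the mutants, edgeR called 0 genes in footprints, while 4 of 5 bone, 5 of 7 marrow and 3 of 3 tested muscle genes had an unadjusted p under 0.05 (80%, 71.4% and 100%, against 10.8% of all genes), all higher in *Gtpbp1*-/- mice, and DESeq2 called 3, 2 and 2 (against 0.707% of all genes). Red cell markers had 0 of 6 there. In RNA, 2 of 6 red cell markers passed as higher in *Gtpbp1*-/- mice (33.3%, against 13.8% of all genes), and 0 genes of the 4 lists passed otherwise against B6J. Apart from *Atoh1*, no marker of these lists was at 0 in all 9 footprint libraries, and the part of these cell types in the histone result was not tested.

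Neuronal and glial lists gave further calls in RNA, as lower levels of 1 of 4 Purkinje cell and 2 of 4 astrocyte markers in *Gtpbp1*-/- (25% and 50%, against 13.8% of all genes) and of 3 and 2 of them in *Gtpbp2*-/- mice (75% and 50%, against 8.63%). DESeq2 called 2 Purkinje cell markers in *Gtpbp1*-/- RNA (against 17.4% of all genes), and 1 of 3 oligodendrocyte precursor markers passed with edgeR as higher in *Gtpbp2*-/- RNA (33.3%, against 8.63%). In footprints, markers of Purkinje cells (4, *Calb1* most abundant) summed to 5787 ± 2209 CPM in B6J, 6579 ± 1938 in *Gtpbp1*-/- and 7735 ± 436 in *Gtpbp2*-/- mice (SD, n = 3). Astrocyte and Bergmann glia markers (4, *Slc1a3* most abundant) summed to 3255 ± 330, 3630 ± 425 and 3387 ± 228 CPM in the same order. Markers of oligodendrocyte precursors (3, *Olig1* most abundant) summed to 230.9 ± 11.1, 295.8 ± 34.4 and 275.7 ± 27.0 CPM. Of these 3 lists edgeR called 0 genes in the footprints of either mutant, DESeq2 called 0, and an unadjusted p under 0.05 was reached by 3 of 11 genes in *Gtpbp1*-/- (against 12.6% of all genes) and by 1 of 11 in *Gtpbp2*-/- mice (against 17.1%). Between the mutants it was 1 of 11 (against 10.8%), with 0 called. Markers of Purkinje cells, granule neurons and astrocytes were thus abundant in all groups of this tissue, which is labelled cerebellum.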

How the data were processed

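Replication-dependent histone genes were studied in poly(A)-selected RNA and in ribosome footprints of the cerebellum of B6J, *Gtpbp1*-/- and *Gtpbp2*-/- mice, 3 libraries of each per assay. For RNA, the authors ran kallisto (0.42.4) on paired reads against transcripts of Gencode M20 and deposited estimated counts for each transcript, not normalized. They deposited TPM values beside them, which kallisto scales by effective transcript length. For footprints, the authors removed ribosomal RNA reads with Bowtie2 (2.2.3), aligned the rest to the mm10 genome with HISAT2 (2.1.0) and deposited raw counts on coding sequences from featureCounts, and the treatment of reads with several alignments is not given in the sources used here.

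A gene's estimated count is the rounded sum of those of its transcripts, and its TPM the sum of theirs. Genes that reached 5 counts in 3 or more of 6 libraries were tested with edgeR (4.0.16, R 4.3.3; TMM, robust quasi-likelihood test, Benjamini-Hochberg over all genes tested), with genotype as the only term. Alternatives were DESeq2 (1.42.0), upper quartile normalization, no filter, a joint fit of the 9 libraries, replicate number as a block and leaving out each library, and for RNA also protein-coding transcripts alone and an offset for effective transcript length. The code was tested on simulated counts with 200 changed genes. Coding sequences, positions, 30-base windows and stem-loops came from Gencode M21 on GRCm38.p6, which matched 54723 of the genes in the RNA files. Footprint CPM was divided by the longest coding sequence of a gene. These steps used Python 3.11.15 and pandas 2.3.3. The SE of a log2 fold change is its absolute value divided by the square root of the quasi-likelihood F statistic. It therefore takes in spread between libraries, and SD is the spread over libraries. Floors cover counting error only.

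The members and lists were chosen with earlier results of these data known. Members are named if they passed a test in any comparison, had the highest mean TPM or footprint CPM of their class, or were among the 5 highest of an assay, and list genes if they passed, up to 4 in each list, beside a few fixed by name (among them *Slbp*, *Npat* and *Pcna*). Others that are named were chosen after their values were seen, as the text says.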

Additional observations from a re-analysis of the deposited data

How the results depend on the processing

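Changing a processing step moved the number of histone genes past the threshold as follows. With no filter on low counts, it was 5 for *Gtpbp1*-/- and 1 for *Gtpbp2*-/- RNA against B6J, where the reported counts are 3 and 0, and 1 for *Gtpbp1*-/- footprints, where it is 0. DESeq2 gave 1 for *Gtpbp2*-/- RNA, 5 for *Gtpbp1*-/- footprints and 3 for footprints between the mutants, where edgeR gave 0 in each. For *Gtpbp2*-/- footprints, where the reported count is 5, it was 3 with upper quartile normalization, and a joint fit of the 9 libraries gave 2 there and also 2 for *Gtpbp1*-/- footprints. The cause was not tested. The number of genes tested also changes without the filter. Over these alternatives, 2231 to 4325 of all genes passed in *Gtpbp1*-/- RNA and 1360 to 3409 in *Gtpbp2*-/- RNA. In footprints it was 44 to 406 for *Gtpbp1*-/- mice, 268 to 655 for *Gtpbp2*-/- mice and 1 to 100 between the mutants. Leaving out 1 library gave 2 to 5 for *Gtpbp1*-/- RNA, 0 to 1 for *Gtpbp2*-/- RNA, 0 to 1 for *Gtpbp1*-/- footprints, 0 to 3 for *Gtpbp2*-/- footprints, and 0 for both comparisons between the mutants, with fewer samples in each fit.

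A replicate block kept these counts within 1.5 times the reported ones. Replicate numbers do not pair the libraries, since 18 correlations between libraries of the same number and different genotype lay between −0.297 and 0.198, with 2 over 0.1. Among all genes, the number past the threshold in *Gtpbp1*-/- RNA fell from 3398 to 2237 with the block and to 2231 with the offset for transcript length. DESeq2 called 3409 genes in *Gtpbp2*-/- RNA where edgeR called 2146, 406 in *Gtpbp1*-/- footprints where edgeR called 104, 655 in *Gtpbp2*-/- footprints where edgeR called 406, and 100 in footprints between the mutants where edgeR called 0. Leaving out 1 library gave 1890 to 3798 genes for *Gtpbp1*-/- RNA, 953 to 2357 for *Gtpbp2*-/- RNA, 22 to 186 for *Gtpbp1*-/- footprints and 106 to 619 for *Gtpbp2*-/- footprints, so the backgrounds move as well. The median log2 fold change of histone genes in *Gtpbp1*-/- RNA, reported as 0.33, was 0.60 with the replicate block and 0.54 with protein-coding transcripts alone, which also gave 0.21 for *Gtpbp2*-/- RNA. Alternatives were run for only part of the named genes with an unadjusted p under 0.05, and the fold changes of that part kept their sign.

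Low counts limit the RNA results, where 35 of 70 members were not tested. Near-identical copies limit what the footprints of a single H2A, H2B, H3 or H4 gene can show, and 3 mice per genotype leave calls near the threshold to single libraries.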
